A study of Mus musculus with 36 samples.

Results

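The Nat8 acetyltransferase paralogs are a cluster of small genes on mouse chromosome 6. The cluster was followed in the livers of male mice that lacked the insulin receptor in hepatocytes. The genes are those whose name in the scanner files is Nat8, begins with Nat8f or is one of Cml1 to Cml5. This gave 5 genes with 1 probe each, of the 23056 genes tested: Nat8, Cml1 (now Nat8f1), Cml2 (now Nat8f2), Cml3 and Cml5 (now Nat8f5). They were chosen by their log2 differences between knockout and control, among the largest falls, so the differences between knockout and control are given as descriptions without a test. In current RefSeq naming, 2 further genes belong to the family and are described beside them, Nat8f6 (Gm11128 in the files) and Nat8f4 (1700019G17Rik).

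Nat8 encodes the enzyme that adds an acetyl group to cysteine conjugates, the last step in making mercapturates. In that route a foreign or reactive compound is joined to glutathione and trimmed by peptidases to a cysteine conjugate. The conjugate is then acetylated and excreted, mostly by the kidney. Proteins of this family lie in the membrane of the endoplasmic reticulum, and some are also described as lysine acetyltransferases that use acetyl-CoA carried into that compartment by Slc33a1. The cluster arose by duplication, and the mouse holds more copies than the human genome does.

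The 36 arrays fell into 6 groups of 6, by 2 genotypes (IRLKO, knockout, and IRLWT, control) and 3 times of day. The mice were C57BL/6J males, 11 weeks old, fed chow freely, and were sampled at ZT8, ZT12 or ZT16, in hours after lights-on with lights off at ZT12. In knockouts exon 4 of Insr, flanked by loxP sites, was removed by a tamoxifen-inducible Cre driven by the transthyretin promoter in liver; the labels do not say whether controls carried the Cre transgene or either genotype received tamoxifen. The labels number the arrays of a group as replicates without saying that each is a separate animal, so p-values measure the spread between these arrays.

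The 75th percentile signal of an array ran from 311 to 525 intensity units, and 53.7% to 63.1% of spots were well above background. No spot was saturated. Arrays hold no counts, so their number limits the precision. Levels below are log2 signal relative to the array's 75th percentile, and levels are compared within a probe only. Insr itself was lower in knockouts, with log2 differences of -1.77 ± 0.13 (SE) at ZT8, -1.88 ± 0.13 at ZT12 and -1.65 ± 0.13 at ZT16 (n = 6 arrays a group; limma adjusted p 1.18e-11, 2.16e-12 and 2.87e-11). The exon that its probe reads is not given here. Knockout ZT8 replicate 3 lay apart from its group, with a second principal component score of 3.21 against 29.3 to 46.1 in the other 5 ZT8 knockouts, and ZT8 values of the members are also given without it.

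Each member was read by its own 60-base probe, on build mm9 (chromosome 6, minus strand). The first 30 bases of each probe are shown, 5′ to 3′, because paralogs can share signal through like sequence. No pair of family probes shared a run longer than 8 bases, and at most 25 of 60 bases were identical without gaps. The probes were compared with each other and not with the transcripts of the paralogs. The comparison therefore cannot show whether a probe also reads a paralog. Cml5 (Nat8f5), chr6:85767345-85767404, Nat8, chr6:85780428-85780487, Cml2 (Nat8f2), chr6:85815512-85815571, Cml1 (Nat8f1), chr6:85860165-85860221, and Cml3, chr6:85683337-85683396, follow in that order.
Cml5: tatgggattccaaaggacaggaaaatactc
Nat8: cccttctgctcaaaaatatgagttgtgatc
Cml2: atttatcagcagagagaagcctcttaggaa
Cml1: actctgctacaggaaccagtgaaccctgtc
Cml3: acaaatggagttggagctatccgtaaagct
The files list RefSeq transcripts of 1 gene for the Nat8, Cml5 and Cml1 probes. The Cml2 probe lists transcripts of Nat8f2 and Nat8f4, so it may read both. The Cml3 probe lists no RefSeq transcript. Cml3 is now a former name of 3 genes, Nat8f3, Nat8f6 and Nat8f7, so the Cml3 probe is called by its file name only. The exons read by the probes are not given here, since the annotation used was of a later build.

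All 5 members were well above background on all 36 arrays. Nat8f5 and Nat8 showed far larger differences than the rest: knockout livers held 0.758% to 1.26% of the control Nat8f5 signal and 2.15% to 4.47% of the control Nat8 signal. Nat8f2, Cml3 and Nat8f1 kept 39.1% to 80.9%. Every knockout lay below every control in 4 of 5 members at ZT8, 5 of 5 at ZT12 and 4 of 5 at ZT16, where 9.38%, 13% and 10% of all genes tested did so. Nat8f5, Nat8 and Nat8f2 did so at all 3 times, as did 3.97% of all genes. Over the 5 members the log2 difference had a median of -1.12 (ZT8), -1.35 (ZT12) and -0.83 (ZT16), against 0.01, -0.02 and 0.00 over all genes tested. These counts and medians only restate how the members were chosen.

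**Figure D1:**
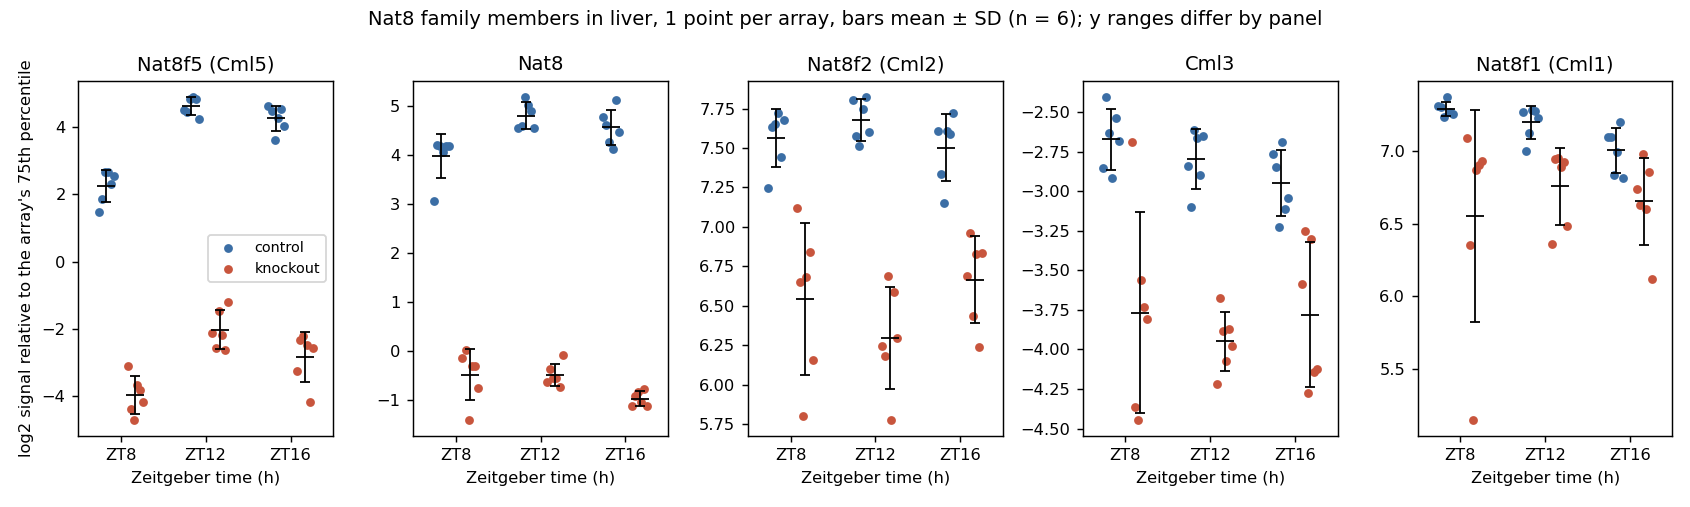
Log2 signal relative to the array's 75th percentile (y axis, its range differing by panel) for the 5 members at ZT8, ZT12 and ZT16 (x axis); each point is 1 array, blue for controls and red for knockouts, and black bars are the mean ± SD (n = 6). Nat8f5 and Nat8 controls lie far above all knockouts at every time, while Cml3 at ZT8 and Nat8f1 at ZT16 overlap.

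Nat8f5, formerly Cml5, is a camello-like paralog of Nat8. In controls its level ran from 1.47 to 2.66 at ZT8 (median 2.42), from 4.23 to 4.88 at ZT12 (median 4.66) and from 3.61 to 4.61 at ZT16 (median 4.37). In knockouts it ran from -4.70 to -3.09 at ZT8 (median -4.00), from -2.62 to -1.20 at ZT12 (median -2.14) and from -4.17 to -2.21 at ZT16 (median -2.53). The highest knockout lay below the lowest control by 4.56 at ZT8, 5.42 at ZT12 and 5.82 at ZT16 on the log2 scale. The fitted log2 differences were -6.31 ± 0.27, -6.55 ± 0.27 and -7.04 ± 0.27 (SE), that is 79.4-fold, 93.7-fold and 132-fold lower signal. Without knockout ZT8 replicate 3, its lowest ZT8 knockout, the ZT8 difference was -6.17. The knockout signal is dim, which makes these folds depend on the background correction: normexp correction gave -4.47, -5.86 and -5.95.

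Nat8, the cysteine-conjugate acetyltransferase itself, ran from 3.06 to 4.22 in ZT8 controls (median 4.19), from 4.55 to 5.19 at ZT12 (median 4.76) and from 4.13 to 5.14 at ZT16 (median 4.55). Knockouts ran from -1.41 to 0.02 at ZT8 (median -0.31), from -0.74 to -0.08 at ZT12 (median -0.56) and from -1.14 to -0.79 at ZT16 (median -0.99). No knockout came within 3.04 log2 units of a control. The fitted log2 differences were -4.48 ± 0.21, -5.29 ± 0.21 and -5.54 ± 0.21 (SE), or 22.4-fold, 39.2-fold and 46.5-fold lower. Knockout ZT8 replicate 3 was again the lowest of its group, and without it the ZT8 difference was -4.29.

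Nat8f2, formerly Cml2, differed less. Controls ran from 7.24 to 7.72 at ZT8, 7.51 to 7.82 at ZT12 and 7.15 to 7.72 at ZT16, and knockouts from 5.80 to 7.12, 5.78 to 6.69 and 6.24 to 6.96, so the groups did not overlap but came within 0.12 of each other at ZT8. The medians were 7.64, 7.67 and 7.60 in controls and 6.67, 6.27 and 6.76 in knockouts. The log2 differences were -1.05 ± 0.17, -1.35 ± 0.17 and -0.83 ± 0.17 (SE), or -0.89 at ZT8 without knockout replicate 3.

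Cml3 was dim but well above background on every array. Its controls ran from -2.92 to -2.41 at ZT8, -3.10 to -2.61 at ZT12 and -3.23 to -2.69 at ZT16 (medians -2.66, -2.75 and -2.95). Its knockouts ran from -4.44 to -2.69, -4.22 to -3.67 and -4.27 to -3.25 (medians -3.77, -3.93 and -3.86). Knockout ZT8 replicate 1, at -2.69, lay among the controls, and the other 5 ZT8 knockouts lay below all of them. The log2 differences were -1.12 ± 0.19, -1.13 ± 0.19 and -0.77 ± 0.19 (SE), or -1.02 at ZT8 without knockout replicate 3, and normexp correction gave -0.50, -0.59 and -0.41.

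Nat8f1, formerly Cml1, differed least. Controls ran from 7.24 to 7.37 at ZT8, 7.003 to 7.28 at ZT12 and 6.81 to 7.20 at ZT16 (medians 7.29, 7.25 and 7.04), and knockouts from 5.15 to 7.09, 6.36 to 6.95 and 6.12 to 6.98 (medians 6.89, 6.90 and 6.68). At ZT16 2 of the 6 knockouts lay within the control range. The log2 differences were -0.74 ± 0.19, -0.44 ± 0.19 and -0.31 ± 0.19 (SE), and the 95% confidence interval at ZT16, -0.69 to 0.08, included 0. The value of 5.15 is knockout ZT8 replicate 3, and without it the ZT8 difference was -0.47.

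The same contrasts within each of the 3 wash batches, which the labels give, kept these directions. Nat8f5 lay between -7.81 and -5.53, Nat8 between -5.62 and -3.93, Nat8f2 between -1.48 and -0.61, Cml3 between -1.93 and -0.39 and Nat8f1 between -1.53 and -0.17. Knockout ZT8 in batch 2, knockout ZT12 in batch 3 and control ZT16 in batch 1 each held 1 array (replicates 5, 6 and 6). The ends at -5.53 for Nat8f5, -3.93 for Nat8 and -0.61 for Nat8f2 each rest on such an array.

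Whole liver was measured, so fewer cells of a type and less RNA per cell cannot be told apart. The 6 hepatocyte markers (among them Alb, Ttr and Cps1) were well above background on every array, with median log2 differences of -0.07, -0.04 and -0.09. Of these, 2 were called lower at each time and 0, 1 and 1 higher at ZT8, ZT12 and ZT16, where 18.7%, 22.6% and 20% of all genes tested were called lower and 16.7%, 19.6% and 19.9% higher (limma, adjusted p under 0.05). Their sum on the linear scale, relative to each array's 75th percentile, ran from 3669 to 4501 in controls and from 2800 to 4119 in knockouts. Of 7 kidney tubule markers, listed because that tissue also makes Nat8, 4 were not among the genes tested. Among the other 3, 1 was called higher at ZT8 and 0 were called at ZT12 or ZT16. The sum of these 3 on the linear scale ran from 0.163 to 0.387 in controls and 0.204 to 0.367 in knockouts. Markers of 2 other cell kinds differed in 1 direction at every time. Of 6 macrophage markers, 2, 4 and 2 rose at ZT8, ZT12 and ZT16 and none fell, with sums of 28.4 to 134 in controls and 56.3 to 276 in knockouts. Of 5 pancreas markers, 3 were not among the genes tested and the other 2 fell at every time, with sums of 24.6 to 56.9 in controls and 9.63 to 15.3 in knockouts. Endothelial markers (4 of 5 at ZT12, 3 at ZT16) and stellate cell markers (3 of 6 at each) rose at the later times, with 0 called at ZT8. Red cell markers (3 tested) had 1 called lower at each time, with 0, 2 and 1 higher at ZT8, ZT12 and ZT16. Fat markers (4 tested) had 1 called lower at each time, with 0, 1 and 1 higher. Cholangiocyte markers (5 tested) had 0 called at ZT8, 1 lower at ZT12 and 1 higher at ZT16. These counts are to be read beside the shares of all genes above, and each list is short. Their part in the differences of the Nat8 genes was not tested.

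Nat8f6 and Nat8f4, the further family genes, were each read by 2 probes. Nat8f6 was well above background on all 18 control arrays with its brighter probe, at medians of -3.48, -2.02 and -1.998, and on none of the 18 knockout arrays. Knockout Nat8f6 was at least 2.87-fold lower at ZT8, 9.47-fold lower at ZT12 and 8.02-fold lower at ZT16. These folds compare means of normalized log2 values, with each knockout array set to the dimmest of its probes that rose well above background, or to the probe's own signal where higher. The other Nat8f6 probe gave at least 9.91-fold at ZT12 and 9.30-fold at ZT16. These bounds hold for this treatment of the background: the measured log2 differences of the brighter probe were -0.70, -1.73 and -1.56 with normexp correction and -1.19, -2.37 and -2.18 in the authors' deposited log2 table, which are smaller. Both probes list transcripts of Nat8f6, Nat8f3 and Nat8f7, so these 3 genes cannot be told apart here.

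The Nat8f4 probes disagreed. With the brighter, controls had medians of 3.20, 3.26 and 2.82 and knockouts 1.79, 1.79 and 2.25, with all 6 knockouts below all 6 controls at each time. At ZT16 the groups came within 0.0068 of each other. The log2 differences were -1.42 ± 0.16, -1.58 ± 0.16 and -0.54 ± 0.16 (SE), or -1.37 at ZT8 without knockout replicate 3. With the dimmer, knockout means were higher by 0.15, 0.37 and 0.80; the groups overlapped at ZT8 and ZT12, and at ZT16 every knockout lay above every control. Averaging both probes turned the ZT16 difference to 0.14.

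**Figure D2:**
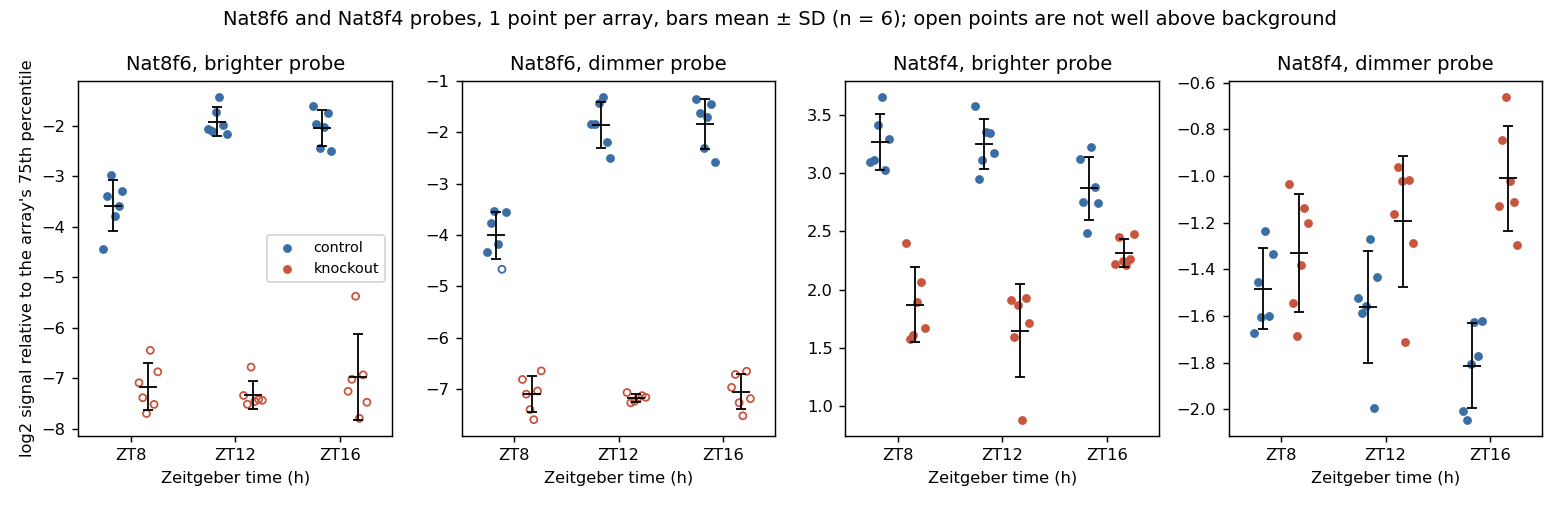
Log2 signal relative to the array's 75th percentile (y axis, its range differing by panel) for both probes of Nat8f6 and of Nat8f4 at each time (x axis); points are arrays, open where not well above background, and bars are the mean ± SD (n = 6). All Nat8f6 knockout points are open, and the Nat8f4 probes differ in direction.

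The member probes span 177 kb. The probes of Nat8f5 and Nat8, with the largest differences of the members, lie at -4.40 and 8.68 kb from the midpoint of the span, and those of Cml3, Nat8f2 and Nat8f1 at -88.4, 43.8 and 88.4 kb. Of the further family genes, Nat8f6 lies at -12.9 kb, with the limit that its probes also list Nat8f3 and Nat8f7, and Nat8f4 at 79.6 kb. Within 500 kb on either side of the span, 14 other genes were tested. Of these, 7 were called at ZT8, 5 at ZT12 and 7 at ZT16, where 35.4%, 42.2% and 39.9% of all genes were (limma, adjusted p under 0.05). Their log2 differences ran from -0.93 to 1.30. The extremes were Pcyox1, an enzyme that breaks down prenylcysteines, at -0.93 ± 0.08 at ZT16 (adjusted p 3.54e-11), and Rab11fip5, a partner of the recycling GTPase Rab11, at 1.30 ± 0.15 at ZT16 (adjusted p 5.76e-08). The genes closest to the cluster were not called at any time: Alms1, a centrosomal protein gene, at 0.08, 0.24 and 0.04, Tprkb at -0.19, -0.22 and -0.11 and Dusp11, an RNA phosphatase gene, at 0.03, -0.01 and -0.10. Their 95% confidence intervals reached from -0.47 (Tprkb at ZT12) to 0.53 (Alms1 at ZT12), so this does not show equal levels.

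**Figure D3:**
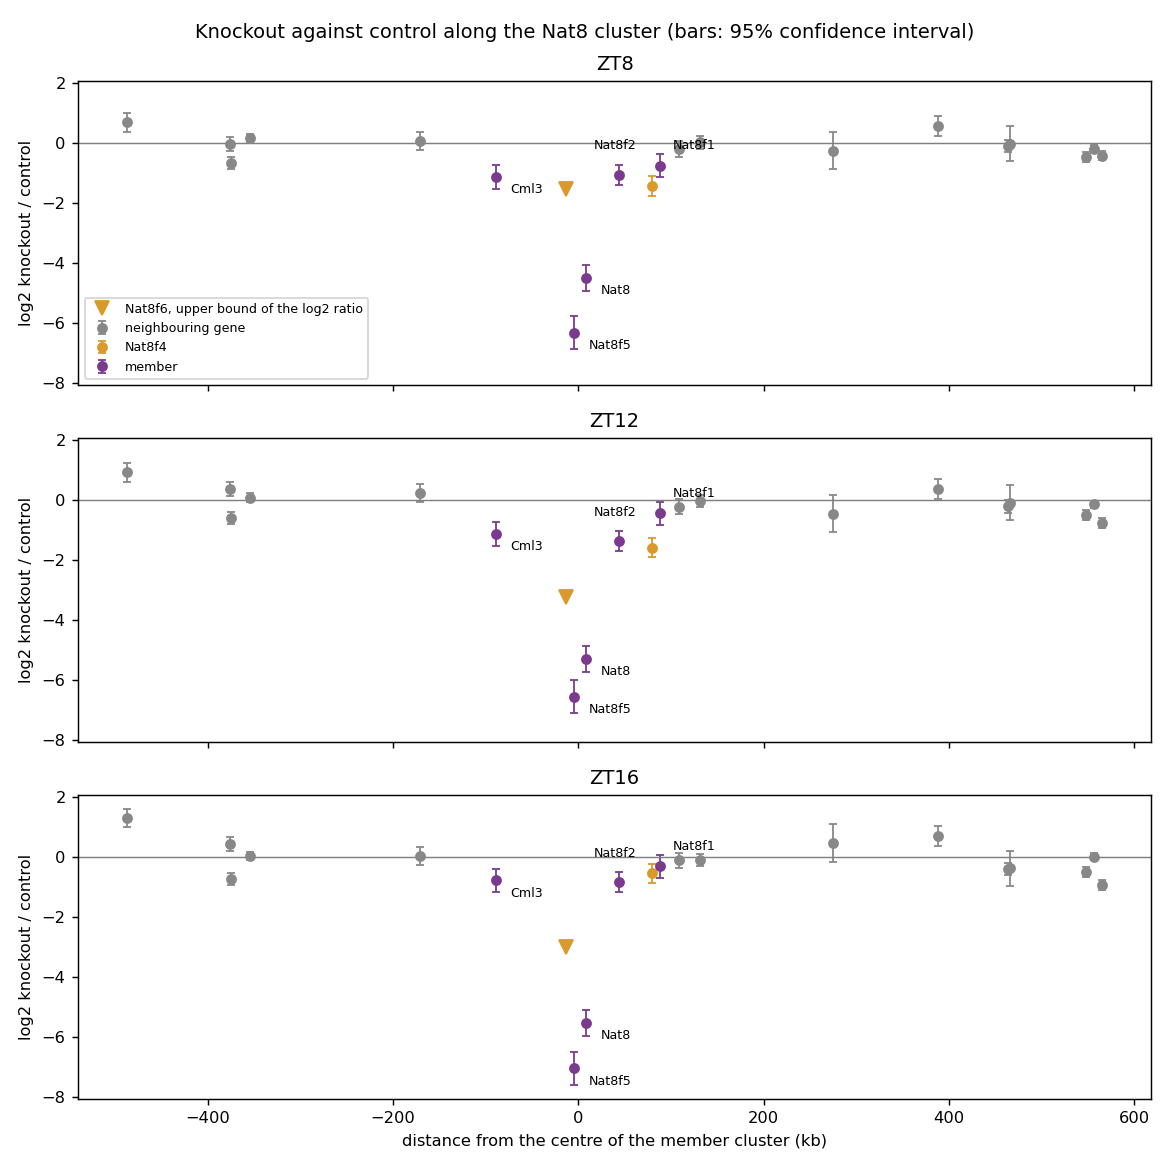
Log2 ratio of knockout to control (y axis) at each time for tested genes within 500 kb of the member probes, against distance from the midpoint of the cluster in kb (x axis); points are fitted differences, bars 95% confidence intervals, and the triangle the upper bound for Nat8f6. The Nat8f5 and Nat8 points sit near -4 to -7 at the centre, and the neighbouring genes between -0.93 and 1.30.

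Time of day was not used to choose the members. Among controls, Nat8f5 rose from ZT8 to ZT12 by 2.37 ± 0.27 (SE, log2, n = 6 a group; limma adjusted p 2.84e-07) and was still 1.96 ± 0.27 higher at ZT16 than at ZT8 (adjusted p 1.87e-06). All ZT12 and ZT16 controls lay above all ZT8 controls. Of the 23056 genes tested, 22 had a larger rise from ZT8 to ZT12. ZT16 and ZT12 differed by -0.41 (95% confidence interval -0.97 to 0.14, adjusted p 0.509). Within wash batches the ZT12 rise was 1.74 to 2.77.

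Nat8 rose less in controls, by 0.82 ± 0.21 from ZT8 to ZT12 (limma adjusted p 0.0057) and by 0.57 ± 0.21 from ZT8 to ZT16 (adjusted p 0.039). The ZT12 controls all lay above the ZT8 controls. The ZT16 rise rests on single arrays: without control ZT8 replicate 1, which at 3.06 stood below the other 5 (4.06 to 4.22), it was 0.38 (adjusted p 0.158). It was also lost without control ZT8 replicate 4 or ZT16 replicate 1, 2, 5 or 6 (0.47 to 0.59, adjusted p 0.0562 to 0.105). Without control ZT8 replicate 1 the ZT12 rise was 0.63 (adjusted p 0.0246).

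In all, 2 of 5 members rose from ZT8 to ZT12 in controls, where 7.7% of all genes did, and 2 of 5 from ZT8 to ZT16, where 13.4% did. For ZT16 minus ZT8 the count was 3 with quantile normalization or the authors' deposited log2 table, where Nat8f1 was called lower. With only the groups compared the 2 were Nat8f5 and Nat8f1, and Nat8 was not called (adjusted p 0.0837). From ZT12 to ZT16 no member passed with limma, nor at an unadjusted p under 0.05, against 3.62% of genes called in either direction. That share is 834 genes, and 436 to 546 without any 1 of control ZT12 replicates 1, 4 and 6 or ZT16 replicates 2, 3 and 6. Nat8f2, Cml3 and Nat8f1 passed none of these comparisons: their ZT12 minus ZT8 differences were 0.12, -0.12 and -0.09, and the confidence intervals reached from -0.51 to 0.45. The ZT16 minus ZT8 difference of Nat8f1 was -0.33 (limma adjusted p 0.212), and it was called with quantile normalization (-0.40, adjusted p 0.0325), in the authors' deposited table (-0.44, adjusted p 0.0299) and with only the groups compared (-0.31, adjusted p 0.0109). Nat8f6 in controls showed rises of the same kind as Nat8f5, of 1.67 ± 0.28 by ZT12 and 1.55 ± 0.28 by ZT16 (limma adjusted p 9.32e-05 and 9.95e-05), with 56 genes rising more by ZT12. With normexp correction these rises were 0.88 and 0.80 and in the authors' deposited table they were 1.11 and 1.001, called each time. Nat8f4 did not pass, at -0.02 and -0.41 (adjusted p 0.0547 for ZT16 minus ZT8). Its ZT16 fall lay close to the threshold and was called in 6 of 12 alternatives (adjusted p 0.0252 to 0.0438) and without any 1 of 7 arrays (0.0231 to 0.0484).

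Among knockouts, Nat8f5 still moved with time although its signal was low. From ZT8 to ZT12 it rose by 2.13 ± 0.28 (SE; limma adjusted p 4.01e-06), and 7 of 23056 genes rose more. Without knockout ZT8 replicate 3 the rise was 1.99. From ZT12 to ZT16 it fell by 0.90 ± 0.27 (adjusted p 0.0247), and at ZT16 it was 1.23 ± 0.27 above ZT8 (adjusted p 8.00e-04). The sizes depend on how dim signal is treated, and so does that rank. With normexp correction the rises to ZT12 and ZT16 were 0.93 (adjusted p 5.38e-04) and 0.46 (adjusted p 0.0499), and in the authors' deposited table they were 1.34 and 0.65. The 6 ZT12 knockouts all lay above the 6 ZT8 knockouts, whereas the ZT16 knockouts, led downward by replicate 5 at -4.17, overlapped them. The fall was not called without ZT12 replicate 3 or 6 or ZT16 replicate 1 or 5 (-0.87 to -0.66, adjusted p 0.0542 to 0.0997), nor with normexp correction (-0.46, adjusted p 0.0808). Within wash batches the ZT12 rise was 1.37 to 2.75 and the ZT16 minus ZT8 difference 0.11 to 2.14. Both lower ends are from batch 2, which held 1 ZT8 knockout array, replicate 5.

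Nat8 in knockouts differed by 0.02 from ZT8 to ZT12 (limma 95% confidence interval -0.41 to 0.45, adjusted p 0.974) and by -0.48 from ZT8 to ZT16 (interval -0.90 to -0.06, adjusted p 0.0841). Without knockout ZT8 replicate 3 the second difference was -0.68 (adjusted p 0.00632), and without control ZT8 replicate 1 it was -0.50 (adjusted p 0.0377). In all, 1 of 5 members rose from ZT8 to ZT12, fell from ZT12 to ZT16 and was higher at ZT16 than ZT8 in knockouts, where 6.72%, 5.53% and 15.5% of all genes did. That member was Nat8f5 in each case. Whether the difference between genotypes changed with time is not reported as a test, since that contrast is built from the values that chose the members.

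**Figure D4:**
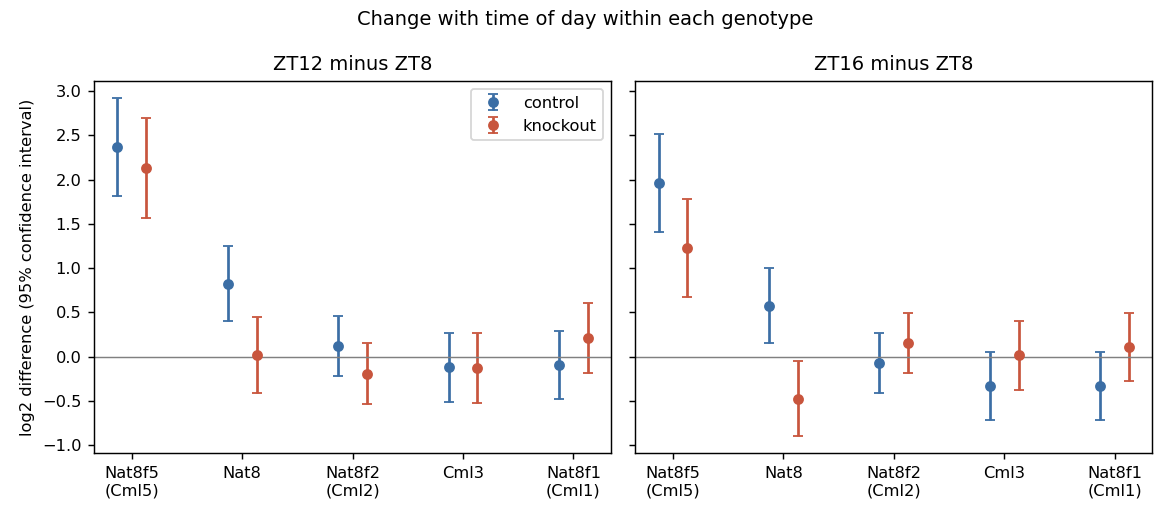
Log2 difference from ZT8 to ZT12 (left) and to ZT16 (right) in controls (blue) and knockouts (red) for the 5 members (x axis), with 95% confidence intervals (n = 6 arrays a group). The intervals are not adjusted for the number of genes. Both Nat8f5 intervals lie above 0 in both panels, as do the Nat8 control intervals. The Nat8 knockout interval spans 0 at ZT12 and lies below 0 at ZT16, where the change was not called (limma adjusted p 0.0841). Whether the genotypes differ in these changes is not reported as a test.

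The 5 members were compared pairwise for their deviations from group and wash batch means over the 18 control arrays, 10 pairs in all. Nat8f5 and Nat8 varied together (Pearson r 0.769, permutation p 7.80e-04, adjusted p 0.0078; Spearman rho 0.713, adjusted p 0.0154). Without the 2 arrays farthest from the median for Nat8f5, r was 0.630. Nat8f5 and Nat8f2 also passed (r 0.641, permutation p 0.00823, adjusted p 0.0411; rho 0.664, adjusted p 0.0314), with r 0.409 without the same 2 arrays. Both rest on control ZT8 replicate 1, the lowest ZT8 control for Nat8f5, Nat8 and Nat8f2: without it r was 0.606 and 0.531 and neither passed (permutation adjusted p 0.162 for both). The second pair was also not called without any 1 of 9 other control arrays, with r from 0.528 to 0.637. The other 8 pairs did not pass, with r from 0.116 to 0.400.

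Genes with the closest pattern to a member were found by Pearson r of the log2 level over all 36 arrays, as a description; the arrays share genotype and time, so genes with a large genotype difference rank high. For Nat8 they were Aldh1a1, a retinal dehydrogenase (r 0.983), Ghr, the growth hormone receptor (0.983), Aadac, a microsomal esterase (0.980), Higd2a (0.980) and Ces1f, a carboxylesterase (0.977). For Nat8f5 they were Clcn2, a chloride channel (0.972), Ghr (0.972), Slc10a2, a bile acid transporter (0.971), and Nat8f6 (0.968), whose knockout values are not above background.

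For Nat8f2 the closest gene was A730091E23Rik, on chromosome 13 (r 0.991), and it was also closest once group and batch means were removed (0.957, or 0.947 without knockout ZT8 replicate 3). For Nat8f1 the closest were Akr1c6, a hydroxysteroid dehydrogenase (0.930), and Mup20, a major urinary protein (0.930). With group and batch means removed they were Akr1c6 (0.940) and Sult2a8, a sulfotransferase (0.936), or 0.890 and 0.875 without knockout ZT8 replicate 3. For Cml3 they were Gm30146 (0.926) and Gm13982 (0.922).

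The other genes of the mercapturate route were read from a list of 14, of which 12 were tested (not Ggt1 or Dpep3). Of these, 5 fell and 1 rose at ZT8, 6 fell and 1 rose at ZT12 and 4 fell and 1 rose at ZT16, where 18.7%, 22.6% and 20% of all genes fell and 16.7%, 19.6% and 19.9% rose (limma, adjusted p under 0.05). The list medians were -0.35, -0.31 and -0.27. Acy3, an aminoacylase that removes the acetyl group from mercapturates of aromatic compounds, had log2 differences of -0.82 ± 0.10, -1.21 ± 0.10 and -0.67 ± 0.10 (adjusted p 7.30e-08, 3.70e-11 and 1.99e-06). Anpep, the aminopeptidase that cleaves cysteinylglycine conjugates, had -0.58 ± 0.08, -0.99 ± 0.08 and -0.91 ± 0.08 (adjusted p 1.72e-06, 7.33e-11 and 3.46e-10). Acy1, the main aminoacylase, had -0.39 ± 0.13, -0.60 ± 0.13 and -1.31 ± 0.13 (adjusted p 0.0146, 3.06e-04 and 1.25e-09).

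Kyat1, a cysteine-conjugate beta-lyase that acts on the same kind of conjugate as Nat8, fell by 1.32 ± 0.13 at ZT8 and by 0.82 ± 0.13 at ZT12 (limma adjusted p 2.70e-09 and 7.78e-06), with -0.31 at ZT16 (adjusted p 0.0557). This ZT16 value lay close to the threshold. It was called in 7 of 12 alternatives (limma adjusted p 0.0128 to 0.0497) and without any 1 of 6 arrays (0.0368 to 0.0492). The genes that rose, named after their values were seen, were Kyat3, another beta-lyase, by 0.79 at ZT8 and 0.42 at ZT12 (adjusted p 4.88e-05 and 0.0165), and Dpep2, a dipeptidase, at ZT16. The Dpep2 probe was well above background on 12 of 36 arrays, so no size is given, and the 1 risen gene at ZT16 rests on dim signal.

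Glutathione supply, upstream of the conjugation, moved in both directions. Of 11 listed genes 10 were tested (not Slc7a11), and 3 rose and 3 fell at ZT8, 1 rose and 4 fell at ZT12, and 2 rose and 3 fell at ZT16, where 16.7%, 19.6% and 19.9% of all genes rose and 18.7%, 22.6% and 20% fell. The list medians were 0.01, -0.05 and 0.00. Gclc, the rate-limiting ligase of glutathione synthesis, had log2 differences of -0.72 ± 0.13, -1.11 ± 0.13 and -0.68 ± 0.13 (limma adjusted p 6.72e-05, 6.33e-08 and 1.22e-04). Gss, the second enzyme, rose by 0.73 ± 0.11, 0.57 ± 0.11 and 0.54 ± 0.11 (adjusted p 2.46e-06, 6.13e-05 and 1.46e-04). Chac2, which degrades glutathione, had -0.90, -0.93 and -0.995 (adjusted p 4.51e-08, 1.94e-08 and 4.95e-09). Oplah, the 5-oxoprolinase, rose by 0.48 at ZT8 (adjusted p 4.24e-04) and was at 0.05 and -0.07 later.

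Of 11 genes for acetyl-CoA supply and acetylation in the endoplasmic reticulum, 10 were tested (not Acat2). At ZT8 6 fell and 2 rose, at ZT12 5 fell and 1 rose and at ZT16 6 fell and 2 rose, where 18.7%, 22.6% and 20% of all genes fell and 16.7%, 19.6% and 19.9% rose. The list medians were -0.23, -0.29 and -0.36. Slc33a1, the carrier that brings acetyl-CoA into the endoplasmic reticulum, had log2 differences of -0.56 ± 0.08, -0.46 ± 0.08 and -0.40 ± 0.08 (limma adjusted p 2.84e-06, 3.52e-05 and 2.40e-04). Acss2, which makes acetyl-CoA from acetate in the cytosol, had -2.14 ± 0.24, -1.88 ± 0.24 and -2.07 ± 0.24 (adjusted p 4.31e-08, 3.05e-07 and 6.22e-08). Acat1, the mitochondrial acetoacetyl-CoA thiolase, ran from -0.77 to -0.51 (adjusted p 2.52e-05 or below) and Pank3, a pantothenate kinase, from -0.76 to -0.22 (adjusted p 0.0131 or below). The ZT8 call of Pank3 was lost in the authors' deposited table (-0.11, limma adjusted p 0.143) and with only the groups compared (-0.23, adjusted p 0.0730).

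N-acetyltransferases outside the cluster gave a comparison group of 25 genes, 22 of them tested (not Nat6, Glyatl3 or Satl1). At ZT8 8 fell and 2 rose, at ZT12 9 fell and 2 rose and at ZT16 6 fell and 3 rose. That is 10, 11 and 9 of 22 called, where 35.4%, 42.2% and 39.9% of all genes were called in either direction, and the list medians were -0.15, -0.13 and -0.04. Nat2, an arylamine acetyltransferase, had log2 differences of -0.79 ± 0.12, -0.81 ± 0.12 and -0.52 ± 0.12 (limma adjusted p 3.88e-06, 2.01e-06 and 7.67e-04). Naa60, which acetylates the N-termini of membrane proteins, had -0.24 ± 0.09, -0.71 ± 0.09 and -1.02 ± 0.09 (adjusted p 0.0293, 1.15e-07 and 1.24e-10). The ZT8 call of Naa60 was lost without knockout ZT8 replicate 3 (-0.13, adjusted p 0.126) or control ZT8 replicate 2, 3 or 4 (adjusted p 0.0503 to 0.0668). It was also lost with the mean over probes (-0.12, adjusted p 0.306), in the authors' deposited table (-0.17, adjusted p 0.0678), with no filter (adjusted p 0.0563) and with only the groups compared (adjusted p 0.160). Naa50, an N-terminal acetyltransferase, ran from -0.55 to -0.40, and Nags, which makes the N-acetylglutamate that switches on the urea cycle, had -0.56 at ZT8 (adjusted p 1.74e-05). The ZT8 call of Naa50 was lost with the mean over probes (-0.16, limma adjusted p 0.0835). Nags was also called at ZT12 (-0.23), but not in 6 of 12 alternatives or without any 1 of 19 arrays. The count called at ZT8 was 6 in place of 10 without knockout ZT8 replicate 3 and 15 without replicate 1.

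**Figure D5:**
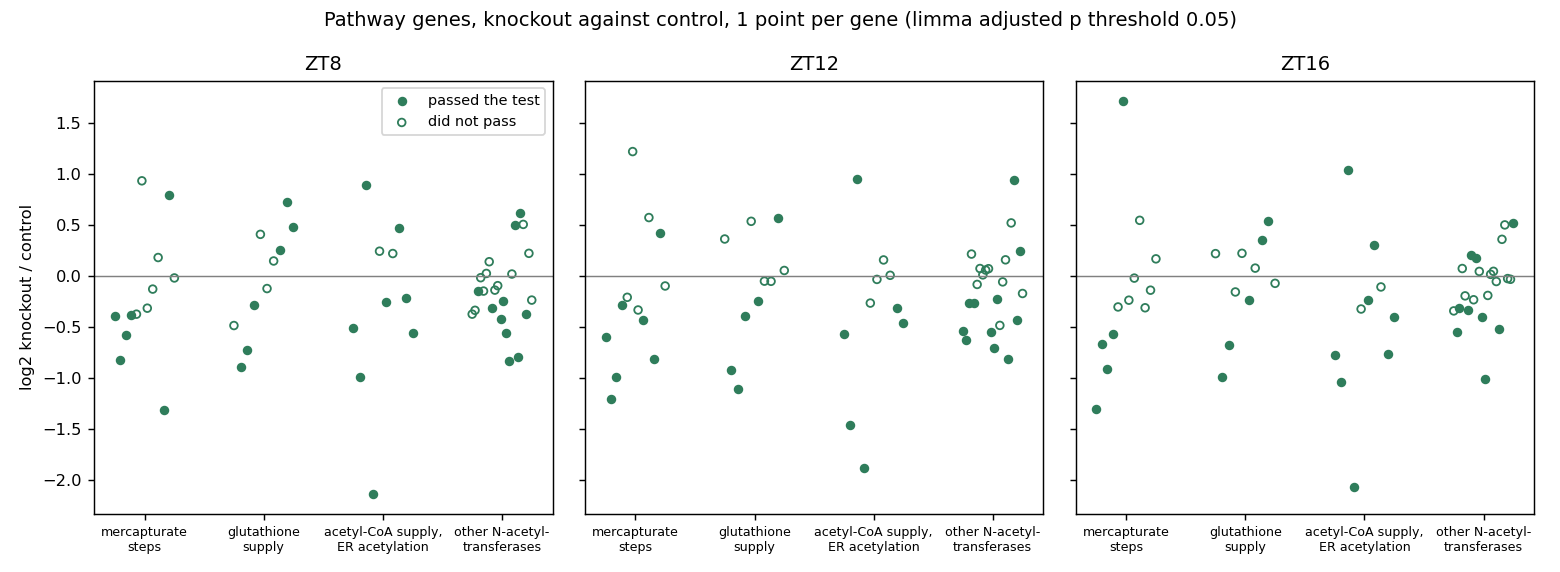
Log2 ratio of knockout to control (y axis) at ZT8, ZT12 and ZT16 for each tested gene of the 4 lists (x axis); filled points passed the limma test at an adjusted p of 0.05 and open points did not. No listed gene reached the size of the Nat8f5 or Nat8 differences, and Acss2, near -2, was the lowest. The members were chosen for large falls in this contrast, so this is no test of the cluster against the lists.

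Upstream windows of the family genes, the 250 bases before each RefSeq start on build GRCm38.p6, were searched for motifs as a description. RefSeq gave 10 such windows for 8 family genes, with 2 starts each for Nat8 and Nat8f4, and none can be given for Cml3. Windows of Nat8f5 (chr6:85820973-85821222), Nat8f6 (chr6:85809878-85810127), Nat8f2 (chr6:85869138-85869387), the upstream start of Nat8 (chr6:85836858-85837107) and Nat8f1 (chr6:85915633-85915882), all on the minus strand, are shown 5′ to 3′ to let the strongly and weakly differing genes be compared. Capitals mark CCAAT and a word of GGTTTAT, any base and ATT, on either strand.
Nat8f5: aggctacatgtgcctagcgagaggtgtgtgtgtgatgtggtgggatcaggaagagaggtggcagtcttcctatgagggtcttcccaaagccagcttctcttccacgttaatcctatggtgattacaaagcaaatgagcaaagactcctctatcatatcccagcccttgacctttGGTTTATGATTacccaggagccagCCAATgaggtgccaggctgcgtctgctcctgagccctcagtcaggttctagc
Nat8f6: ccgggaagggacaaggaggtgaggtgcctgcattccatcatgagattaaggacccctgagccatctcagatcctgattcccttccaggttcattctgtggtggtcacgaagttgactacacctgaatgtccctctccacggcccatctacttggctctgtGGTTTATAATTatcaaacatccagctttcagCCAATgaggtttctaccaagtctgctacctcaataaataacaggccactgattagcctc
Nat8f2: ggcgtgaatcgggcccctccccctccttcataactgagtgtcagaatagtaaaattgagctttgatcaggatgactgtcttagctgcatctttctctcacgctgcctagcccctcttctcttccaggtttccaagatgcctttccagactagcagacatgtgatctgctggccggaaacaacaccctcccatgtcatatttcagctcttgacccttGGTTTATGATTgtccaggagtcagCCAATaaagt
Nat8: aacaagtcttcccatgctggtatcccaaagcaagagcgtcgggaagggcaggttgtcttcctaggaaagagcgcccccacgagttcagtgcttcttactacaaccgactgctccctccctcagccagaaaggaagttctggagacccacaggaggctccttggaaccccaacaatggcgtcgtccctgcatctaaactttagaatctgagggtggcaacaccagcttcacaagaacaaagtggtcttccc
Nat8f1: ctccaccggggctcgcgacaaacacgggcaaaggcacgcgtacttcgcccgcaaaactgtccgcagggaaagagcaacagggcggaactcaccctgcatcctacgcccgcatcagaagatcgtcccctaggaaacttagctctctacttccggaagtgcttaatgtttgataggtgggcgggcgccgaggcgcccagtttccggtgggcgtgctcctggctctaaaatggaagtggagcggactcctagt
The words were chosen after these sequences were seen, and the windows come from duplicated genes, so they are not independent. The longer word was found in 4 of the 10 family windows, those of Nat8f7, Nat8f6, Nat8f5 and Nat8f2. Over the windows of all genes it was in 17 of 32851 (0.0517%), a count that includes these 4. It began 76 bases before the start in Nat8f5, 90 in Nat8f6, 98 in Nat8f7 and 34 in Nat8f2, with a CCAAT downstream of it in each. CCAAT alone was in 6 of 10 family windows and 33.8% of all windows. The downstream start of Nat8, not shown here, held it at -241 and, on the other strand, at -199 from the start. The Nat8f7 and Nat8f6 windows were 91.5% identical.

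Of the 9 other motifs searched on both strands, 7 had no match in any family window: GTAAACA for FOXO (3.17% of all windows), TTGCNNAA for C/EBP (9.56%), TTCNNNGAA for STAT5 (7.02%), TTANGTAA for the D-box (2.06%), CACGTG for the E-box (6.02%), the HNF1 motif (0.371%) and CAAAGTCCA for HNF4 (0.384%). AGGTCA, a nuclear receptor half-site, was in 3 of 10 windows (14% of all), once in Nat8f5 and at both starts of Nat8f4. TGACNNNGC, the antioxidant response element, was in 1 (10.2% of all), at the downstream start of Nat8f4. A match describes letters in this window and is not a site. The Nat8f1 window had 21 CpG and 59.6% G or C, against a median of 6 CpG and 52.4% in all windows, whereas Nat8f5 and Nat8f6 had 3 CpG each. Nat8f2, which differed less by genotype, had 4 CpG. Nat8 had 7 at its upstream start and 1 at its downstream start, and Nat8f4 had 10 and 1.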

How the data were processed

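Liver RNA (200 ng, labelled with Cy3) was read on 36 Agilent 1-colour arrays. The authors deposited scanner files of spot intensity made with Agilent Feature Extraction 10.10.1.1, per the file headers, with background subtracted and detrended by that software and no normalization between arrays. They also deposited a table of log2 values, whose scaling is not given in the sources used here; limma is named without a version in the submitters' processing notes. The spot flags in the deposited files are other values of 0 or 1.

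The processed intensity was put on the log2 scale, less each array's 75th percentile. Control and outlier spots were left out, spots of a probe averaged, and 34680 probes kept that were well above background on at least 6 arrays. A gene was read by its brightest probe, which gave 23056 genes. Names were updated through RefSeq (GRCm38.p6) where the accession matched, for 32994 of 56605 probes. limma 3.58.1 in R 4.3.3 was fitted over all 6 groups with wash batch as a term, with Benjamini-Hochberg adjustment over all genes at 0.05; the method was tested on simulated data.

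The members, lists and tests were chosen with earlier results of these data known. Genes named are the members, family genes by current name, neighbours within 500 kb, up to 4 list genes with the smallest adjusted p, and the 5 genes most like each member; of neighbours and likenesses the closest or most extreme are printed, and 1 gene like Nat8f5 is not reported here. The planned test of a genotype effect by time was run but is not reported, because it is built from the contrasts that chose the members. Replicate numbers did not pair the samples. Alternatives covered background correction, normalization, filter, probe choice, slide, batch, array weights, replicate block and each array left out.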

Additional observations from a re-analysis of the deposited data

Results flagged for a closer look

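Within groups of 6 arrays, 1 value stood far from the other 5 in 4 of the 54 probe and group combinations searched; chance gives about 1 in 20, or 2.7 here. Control ZT8 replicate 1 read 3.06 for Nat8, below the other 5 arrays. Knockout ZT12 replicate 4 read 0.88 for the brighter Nat8f4 probe, the lowest of its group. Knockout replicate 3 read -6.78 at ZT12 and -5.38 at ZT16 for the brighter Nat8f6 probe, the highest of each group, although no knockout array was well above background there.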

How the results depend on the processing

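The members' genotype differences kept their direction under every alternative run. Of the single values and counts, the alternatives other than leaving out an array kept most on the same side of the threshold. The exceptions among counts follow. The fall of Nat8f5 from ZT12 to ZT16 in knockouts (1 member) became 0 with normexp correction or no batch term and 2 with only the groups compared, and the ZT16 minus ZT8 count in knockouts (1) became 2 with array weights. In controls the ZT16 minus ZT8 count (2) became 1 with no filter and 3 with quantile normalization or the authors' deposited log2 table. With only the groups compared it stayed at 2, with Nat8f1 called in place of Nat8. Replicate numbers did not pair samples: 8 of 36 arrays correlated best with their own number, and with the replicate block the counts of members stayed as they were, while Nat8f4 in controls was called lower at ZT16 than ZT8 (-0.42, adjusted p 0.0412). The other N-acetyltransferases called at ZT8 (10) became 6 with normexp or no filter and 5 with only the groups compared, where the acetyl-CoA list (8) became 5. Pairs of members that varied together (2) became 1 with normexp or quantile normalization. Nat8f4 at ZT16 reversed to 0.14 with the mean over probes. Apart from fewer genes or samples entering by construction, the cause was not tested.

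Leaving out 1 array at a time gave 1 to 2 members for control ZT16 minus ZT8, 0 to 1 for knockout ZT16 minus ZT12, 1 to 2 for knockout ZT16 minus ZT8, 6 to 15 other N-acetyltransferases at ZT8 and 0 to 2 pairs. Over all genes, control ZT16 minus ZT12 called 834, against 494 with no filter, 339 with slide as a block and 328 with only the groups compared. With only the groups compared, the knockout time comparisons called 618 for 3048, 1684 for 2900 and 4360 for 6662. Dim signal limits Nat8f5 in knockouts, Cml3 and Nat8f6, whose knockout levels are bounds.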
